A study of Homo sapiens with 9 samples.

Results

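The comparison described here set U-87 cells treated with temozolomide alone (TMZ, 600 µM, 24 h, library TMZ600) against untreated U-87 cells. U-87 is an established human glioblastoma line, and TMZ is the alkylating drug used against this tumour. The series holds 9 libraries in all, and its other 5 come from cells treated with evernic acid (EA), a lichen metabolite, at 30 or 45 µM or in 3 mixtures with TMZ. Of these 9, the comparison used 4, namely 1 TMZ600 library and the 3 untreated libraries, called controls 1 to 3. All groups were kept in the same medium (MEM with 10% FBS), and the labels name no vehicle for the controls. The study states replicates for its experiments, also beside its sequencing results, but the labels list a single library for each treatment and do not say that the 3 controls came from separate cultures, so the p-values may measure only the spread between these libraries, which may be technical. The treatment itself had no replicate. RNA was read from the 3′ ends of transcripts and counted on 159067 RefSeq transcripts. The rule for members used abundance and no comparison between groups. A transcript was taken where its counts averaged 10 or more across the 4 libraries, which gave 630 of 159067 (617 nuclear and 13 mitochondrial) that held 98.2% of the counts.

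TMZ breaks down in water to a methylating species that attacks DNA, mainly at guanine. The most toxic lesion, a methyl group on the oxygen of guanine, is removed directly by the repair enzyme MGMT. Where it stays, it pairs wrongly when DNA is copied, and mismatch repair then starts rounds of repair that can end in strand breaks, arrest of the cell cycle and cell death. p53 targets, repair genes, mitotic genes and death receptors are therefore the groups most often examined after this drug.

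The libraries were shallow. The controls held 269057, 259753 and 285248 counts and TMZ600 held 304336, of which 147139 lay on nuclear transcripts. A count of 0 allows up to 3 counts by counting error alone, equal to between 9.85 and 11.9 CPM (counts scaled by TMM to a common library total) in these libraries. Many genes that every cell uses had no counts under their names, for example 78 of 89 genes of cytosolic ribosomal proteins and 47 of 50 proteasome genes, so a 0 is not read here as absence. Of the 528 tested transcripts with a gene symbol, 63.1% were the only listed transcript of their gene, against 15.5% of all named transcripts in the table. Whether this difference arose in the counting step was not tested. Of 23 glioma and astroglial markers, 19 were at 0 in all 4 libraries, GFAP among them, and NES was the marker with enough counts for testing. SLC1A3, TNC and NCAN had at most 9 counts per library. Markers of neurons, fibroblasts, immune cells and endothelium summed to at most 5 counts per library in each list, and those of oligodendrocytes and epithelium were at 0.

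A small share of the transcripts differed between TMZ600 and the controls. SE below is an approximate standard error, namely the size of the log2 fold change divided by the square root of edgeR's F value. It comes from the same F value as the p-value, so SE and p are not independent. With the quasi-likelihood test of edgeR, 59 of 630 passed an adjusted p of 0.05 (9.37% of those tested). Of these, 26 were higher (4.13%) and 33 lower (5.24%) in TMZ600. Control 3 weighed heavily on these counts: without it 20 passed, 5 higher and 15 lower. With a symbol, those 20 were TNFRSF10D, MIR210HG, SOX4, NES, MT1B, TCF7L1, IFITM1, CFAP45 and RRAGA among the falls and DLGAP1-AS2, KHDC4, TBC1D16 and COX1 among the rises, and every other gene with a symbol given below as past the threshold was lost without control 3. The fold changes of the 39 lost calls stayed about as large, all with the same sign, with a median size of 0.73 on the log2 scale before and 0.75 after and a shift of at most 0.24, while their median standard error went from 0.19 to 0.21. Some of these calls were also lost without another control. NCOR1, SHB, COL18A1, LOC107985563 and LOC105372858 did not pass whichever control was left out. In such bulk RNA, fewer cells with a transcript and less of it per cell cannot be told apart. The median log2 fold change of all 630 transcripts was 0.0018. Among the named genes, the decoy death receptor TNFRSF10D, the noncoding host gene MIR210HG, the transcription factor SOX4 and the intermediate filament gene NES fell, and the RNA-binding protein gene KHDC4, the Rab regulator gene TBC1D16 and the mitochondrial gene COX1 rose. The filter on the mean of the 4 libraries let in 17 transcripts that averaged under 10 counts in the controls, through their TMZ600 counts, and 42 with under 10 counts in TMZ600, through the controls. These had to differ, and of them DLGAP1-AS2 was called higher and HCCAT5, ZC3H11B and PPP1R3G lower. Without regard to any test, TMZ600 lay above all 3 controls for 208 transcripts (33.0%) and below all 3 for 195 (31.0%). Were the 4 libraries alike, a share of 0.25 would be expected on each side. Protein-coding transcripts gave 18 rises and 20 falls of 397, long noncoding RNAs 4 and 5 of 109, and transcripts without a symbol 4 and 8 of 102. Among transcripts past the threshold, 22 fell and 8 rose by at least 1 on the log2 scale, or 19 and 7 without those that reached the filter through a single group.

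**Figure D1:**
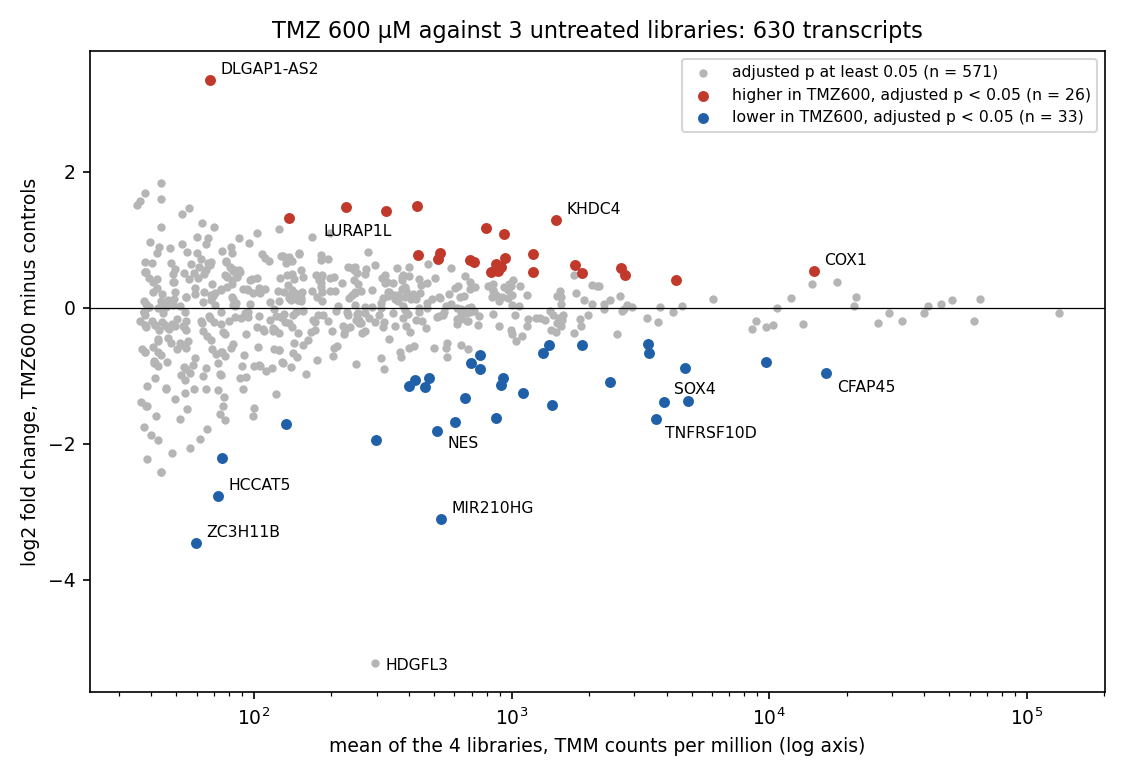
Each point is 1 of the 630 transcripts. The x axis gives the mean of the 4 libraries in TMM-scaled CPM (log axis) and the y axis the log2 fold change of TMZ600 against the 3 controls. Red points (26) were higher and blue points (33) lower with an adjusted p under 0.05, grey points (571) did not pass, and the low grey point HDGFL3 had its counts in 1 control.

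Abundance set which changes could be seen. For the 322 transcripts with a mean of 10 to under 50 counts the median standard error of the log2 fold change was 0.57, 6 passed, and the smallest change that passed was 1.32. For the 33 transcripts averaging 1000 counts or more the median standard error was 0.11, 7 passed, and the smallest change was 0.41. Smaller changes of scarce transcripts were not detectable at this depth. The lowest fitted value of all, -5.23 for HDGFL3 (a growth factor-like gene), shows the effect of a single library. HDGFL3 had 0, 295 and 0 counts in the controls and 3 in TMZ600, its control values surrounded that of TMZ600, and it did not pass (edgeR adjusted p = 0.173).

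In the TNF family, the receptor gene TNFRSF10D fell and the ligand gene CD70 rose. TNFRSF10D (NM_003840.5, chr8:23135588-23164027) encodes a receptor that binds the death ligand TRAIL without passing on a death signal, and it is also listed as a p53 target. It had 1174, 1127 and 1194 counts in the controls and 429 in TMZ600. The controls lay close together, at 4401 ± 62.7 CPM (SD, n = 3), and TMZ600 lay far below them at 1408 CPM. The log2 fold change was -1.64 (SE 0.13, edgeR adjusted p = 4.88e-08), the lowest p of the comparison. CD70 (NM_001252.5, chr19:6581648-6591150), the ligand of the lymphocyte receptor CD27, moved the other way, from 415, 397 and 420 counts to 730. Its groups did not overlap either, and the log2 fold change was 0.63 (SE 0.13, edgeR adjusted p = 0.0027), but it did not pass without control 3 (adjusted p = 0.0639). TNFSF9, the ligand of the costimulatory receptor CD137, had 27, 50 and 48 counts in the controls and 78 in TMZ600, and did not pass (edgeR adjusted p = 0.31). Of 5 tested members of the list of cytokines, chemokines and TNF family genes, 1 rose and 1 fell, against 9.37% called over all 630, and 170 of 190 listed genes were at 0. The median of these 5 was 0.49.

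The genes nearest to the action of TMZ were hardly measured. MGMT was listed at 0 in all 4 libraries, as were 115 of 123 genes for repair of DNA. FANCG, a member of the Fanconi anaemia core complex, had 218, 183 and 208 counts in the controls and 292 in TMZ600. That was above every control, with a log2 fold change of 0.32 that did not pass (SE 0.17, edgeR adjusted p = 0.289). TDP2, which frees DNA ends from trapped topoisomerase, had 63, 61 and 57 counts against 77. ALKBH3, a demethylase of alkylated bases, had 52, 58 and 33 against 44. Neither passed (edgeR adjusted p = 0.856 and 0.729), so 0 of the 3 repair genes tested were called, with a median of 0.15. With 9.37% called over all 630, a count of 0 in 3 genes is no result about repair. Of 48 p53 targets 45 were at 0, and the only tested member was TNFRSF10D, which fell. TNFRSF10A, a signalling TRAIL receptor, had 5, 8 and 9 counts in the controls and 5 in TMZ600, too few for the test. The apoptosis list had 51 of 54 genes at 0. Its tested member RIPK1, a kinase of death receptor complexes, had 32, 79 and 155 counts in the controls, a span that held the 83 counts of TMZ600.

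Of the mitotic genes, NDC80 rose. NDC80 (NM_006101.3, chr18:2571557-2616635), a kinetochore protein that ties chromosomes to microtubules, had 244, 179 and 223 counts in the controls and 410 in TMZ600. In CPM the controls lay at 811 ± 101 (SD, n = 3) and TMZ600 at 1346, above all of them. The log2 fold change was 0.73 (SE 0.17, edgeR adjusted p = 0.00597), and without control 3 it no longer passed (adjusted p = 0.157). KIF11, a motor that separates spindle poles, had 3, 8 and 8 counts in the controls and 22 in TMZ600, and ASPM, a spindle pole protein, had 8, 16 and 12 against 5. Neither passed (edgeR adjusted p = 0.248 and 0.409), and each reached the filter only through the group where it was higher, so nothing is read from their sides. PLK1, a mitotic kinase, had 175, 173 and 153 counts against 217 (edgeR adjusted p = 0.699). In all 1 of 4 tested genes of the cell cycle list rose, against 4.13% over all 630, and 114 of 127 genes were at 0. The median of the 4 was 0.45, a value that rests in part on KIF11 and ASPM. MEIKIN, a kinetochore regulator of meiosis that the list did not hold, had 157, 142 and 178 counts in the controls and 297 in TMZ600 (log2 fold change 0.70, edgeR adjusted p = 0.0173). It passed in 5 of 10 repeats with other settings and in none that left out a control (adjusted p = 0.0784, 0.0612 and 0.116).

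Of the beta tubulins, TUBB6 and TUBB2B fell. TUBB6 (NM_001303525.1, chr18:12307669-12329826) had 227, 196 and 242 counts in the controls and 157 in TMZ600, a log2 fold change of -0.70 (SE 0.19, edgeR adjusted p = 0.0224). TUBB2B (NM_178012.5, chr6:3224277-3227653) had 54, 45 and 29 counts against 15, a log2 fold change of -1.71 (SE 0.49, edgeR adjusted p = 0.0272). TMZ600 lay below every control for both. Neither call was firm, since TUBB2B passed in 4 of 8 and TUBB6 in 6 of 10 repeats with other settings, and the exons of both overlap a gene on the other strand (PSMG4 and AFG3L2). The third tested member, TUBA4B, had 12, 10 and 8 counts against 12, so that 2 of 3 were called against 9.37% over all 630.

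Among transcription factors, SOX4 and TCF7L1 fell. SOX4 (NM_003107.3, chr6:21593751-21598619), a factor of the SOX family active in progenitor cells, had 1148, 1234 and 1270 counts in the controls and 535 in TMZ600. The groups lay far apart, at 4603 ± 304 CPM (SD, n = 3) and 1756 CPM, and the log2 fold change was -1.39 (SE 0.14, edgeR adjusted p = 3.79e-07). SOX4 exons overlap AL512380.2 on the other strand. TCF7L1 (NM_031283.3, chr2:85133392-85310387), a nuclear factor of the Wnt pathway, had 2933, 2733 and 3004 counts in the controls and 1912 in TMZ600. Its control values differed little, at 10912 ± 62.0 CPM (SD, n = 3), against 6276 CPM in TMZ600. The log2 fold change was -0.80 (SE 0.11, edgeR adjusted p = 4.57e-05). TCF7L1 was the 1 of 6 tested members of the Wnt list that passed, against 9.37% over all 630. FZD7, a Wnt receptor, had 104, 143 and 114 counts against 94 (log2 fold change -0.56, SE 0.29, edgeR adjusted p = 0.276). The ligand WNT5A had 169, 187 and 179 counts against 195 and lay inside the controls after scaling, and the inhibitor DKK4, the corepressor TLE6 and the coactivator BCL9L also lay inside them. The median of the 6 was -0.44. The corepressor gene NCOR1, outside these lists, rose from 226, 211 and 203 counts to 371 (log2 fold change 0.59, edgeR adjusted p = 0.02), and its exons overlap PIGL on the other strand. NFX1, a zinc finger repressor, rose from 174, 162 and 159 counts to 304 (log2 fold change 0.68, edgeR adjusted p = 0.0179).

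NES (NM_006617.2, chr1:156668763-156677407) encodes nestin, the intermediate filament protein of neural progenitors and of many gliomas. It had 152, 169 and 174 counts in the controls and 54 in TMZ600. No control came near the treated library, and the log2 fold change was -1.81 (SE 0.27, edgeR adjusted p = 6.11e-05). With 54 counts against at least 152, NES showed a 3.51-fold lower level in TMZ600.

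MIR210HG, MT1B and IFITM1 also fell and passed in every alternative fit that gave them a value. They belong to families known to respond to hypoxia, metals and interferon, and their promoters are shown so that the letters of the elements known for each can be seen beside the values. The windows are the 250 bases before the RefSeq start of each gene in GRCh38.p14, 5′ to 3′ on the strand of the gene, namely chr11:568458-568707 (minus strand) for MIR210HG, chr16:56651636-56651885 (plus strand) for MT1B and chr11:313790-314039 (plus strand) for IFITM1. Capitals mark matches, on either strand, to ACGTG or GCGTG (the core of the hypoxia response element) in MIR210HG, to TGCGCNC or TGCACNC (the core of the metal response element) in MT1B and to GAAA followed after any 2 bases by GAAA (the core of the interferon-stimulated response element) in IFITM1.
MIR210HG: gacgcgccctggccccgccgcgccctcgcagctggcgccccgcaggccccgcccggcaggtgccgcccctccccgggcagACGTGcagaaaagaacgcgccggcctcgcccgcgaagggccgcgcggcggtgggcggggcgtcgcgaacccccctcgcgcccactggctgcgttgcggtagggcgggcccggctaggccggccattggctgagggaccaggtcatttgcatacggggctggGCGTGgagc
MT1B: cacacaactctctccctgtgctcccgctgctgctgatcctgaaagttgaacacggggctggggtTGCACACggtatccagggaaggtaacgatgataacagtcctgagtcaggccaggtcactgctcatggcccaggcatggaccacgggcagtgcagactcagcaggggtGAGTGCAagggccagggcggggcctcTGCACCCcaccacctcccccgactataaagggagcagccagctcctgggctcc
IFITM1: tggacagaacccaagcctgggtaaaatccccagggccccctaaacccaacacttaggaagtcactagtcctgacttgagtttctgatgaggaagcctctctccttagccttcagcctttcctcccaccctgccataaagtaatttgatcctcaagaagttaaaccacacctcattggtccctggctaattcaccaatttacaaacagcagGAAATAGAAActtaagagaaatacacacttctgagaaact
MIR210HG held 2 matches, MT1B 3 and IFITM1 1, the last of them starting 40 bases before the start of transcription. The same letters are present in 47.4% of the 27305 genes with a promoter window for the hypoxia core, 28.5% for the metal core and 3.71% for the interferon core. Among the 367 tested genes with a window the shares are 58.3, 33.0 and 4.09%. The TATA box (TATAAA, searched on both strands) is in 3563 of all windows and in 35 (9.54%) of those tested. Of the 14 genes with a window that rose, 4 hold the hypoxia core, 5 the metal core, 0 the interferon core and 5 the TATA box, and of the 20 that fell 13, 8, 1 and 1 hold them. These counts are small and were not tested. The matches describe the windows and do not show that a factor was bound there.

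MIR210HG (NR_038262.1, chr11:565657-568457), the host RNA of the hypoxia-induced microRNA miR-210, had 160, 182 and 203 counts in the controls and 24 in TMZ600. This was an 8.67-fold lower level, 78.8 CPM against 686 ± 77.3 CPM (SD, n = 3), with no overlap (log2 fold change -3.12, SE 0.31, edgeR adjusted p = 3.79e-07). It was the only tested transcript of 47 genes for hypoxia and glycolysis, 37 of which were at 0. Reads on this RNA do not measure miR-210 itself. Of 7 tested host genes and small RNAs it was also the only transcript that passed, against 9.37% over all 630, and the median of the 7 was -0.21.

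MT1B (NM_005947.3, chr16:56651886-56653204), a metallothionein that binds zinc and other metals, had 375, 303 and 353 counts in the controls and 165 in TMZ600. Every control held more than the treated library, and the log2 fold change was -1.26 (SE 0.18, edgeR adjusted p = 3.63e-05). Metallothioneins are near-identical copies of each other, so that the split of reads between them is uncertain, and the exons of MT1B overlap AC026461.2 on the same strand. SLC39A3, which carries zinc into the cytosol, rose from 99, 123 and 130 counts to 237 (log2 fold change 0.81, SE 0.22, edgeR adjusted p = 0.0224). It was the 1 of 11 tested solute carriers that passed, close to the 9.37% over all 630, and it did so in 7 of 10 repeats and not without control 3 (adjusted p = 0.168).

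IFITM1 and IFITM2, membrane proteins induced by interferon that hinder the entry of viruses, both fell. IFITM1 (NM_003641.4, chr11:314040-315272) had 299, 264 and 283 counts in the controls and 159 in TMZ600 (log2 fold change -1.03, SE 0.18, edgeR adjusted p = 0.000328). IFITM2 (NM_006435.2, chr11:307816-309395) had 963, 909 and 1049 counts against 772 (log2 fold change -0.54, SE 0.13, edgeR adjusted p = 0.00744), and it did not pass without control 3 (adjusted p = 0.0788). The treated library lay below all controls for each of them. They are neighbours with similar sequences whose annotated exons overlap on the same strand, so that reads could be split between them and they are not independent. They were 2 of 4 tested members of the interferon list (9.37% were called over all 630), 66 of 72 genes of which were at 0, and the median of the 4 was -0.20. The complement component C3 (NM_000064.4) went from 511, 609 and 493 counts to 424 (log2 fold change -0.55, SE 0.16, edgeR adjusted p = 0.0358) but passed in 4 of 10 repeats with other settings.

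In the list of matrix and adhesion genes, 2 of 7 tested members passed, against 9.37% over all 630. LAMC1 (NM_002293.4, chr1:183023420-183145592), the gamma chain shared by most laminins, had 778, 970 and 1245 counts in the controls and 724 in TMZ600. The controls spread widely, and the log2 fold change of -0.66 (SE 0.17, edgeR adjusted p = 0.0173) did not pass without control 3, the highest of them (adjusted p = 0.249). COL18A1 (NM_130445.4), the basement membrane collagen from which endostatin is cut, rose from 125, 106 and 123 counts to 224 (log2 fold change 0.72, SE 0.22, edgeR adjusted p = 0.037), was also lost without control 3 (adjusted p = 0.172), and has exons that overlap SLC19A1 on the other strand. Outside the list and named after their values were seen, MYO10, a myosin of filopodia, fell from 115, 130 and 141 counts to 71 (log2 fold change -1.06, edgeR adjusted p = 0.018). The Src inhibitor gene SRCIN1 rose from 546, 387 and 415 counts to 734 (log2 fold change 0.51, edgeR adjusted p = 0.0438). Both were lost without control 3. CFAP45, a protein of cilia and the most abundant nuclear transcript that fell, had 4599, 5129 and 5321 counts against 2971 (log2 fold change -0.96, SE 0.12, edgeR adjusted p = 1.11e-05), and its exons overlap SNHG28 on the same strand.

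Among genes of signalling, transport and metabolism, RRAGA, a GTPase that reports amino acids to mTORC1, fell from 1317, 1509 and 1412 counts to 879 (log2 fold change -0.89, SE 0.14, edgeR adjusted p = 8.64e-05). ANKH, an exporter of pyrophosphate and ATP, fell from 128, 146 and 152 counts to 73 (log2 fold change -1.16, edgeR adjusted p = 0.00678). SVOP, a transporter-like protein of synaptic vesicles, fell from 597, 783 and 827 counts to 397 (log2 fold change -1.09, edgeR adjusted p = 0.000108). In each of these the treated library stood clear of the controls. HSBP1, which binds heat shock factor, fell from 163, 126 and 149 counts to 82 (log2 fold change -1.03, edgeR adjusted p = 0.0136), and the adaptor gene SHB from 183, 245 and 191 to 135 (log2 fold change -0.82, edgeR adjusted p = 0.0249). PPP1R3G, which directs protein phosphatase 1 to glycogen, fell from 25, 26 and 23 counts to 6 (log2 fold change -2.22, SE 0.65, edgeR adjusted p = 0.0317) and passed in 3 of 8 repeats. For ZC3H11B, a zinc finger gene with 22, 22 and 17 counts in the controls and 2 in TMZ600, the ratio of TMZ600 to the controls was 0.0855 with a counting interval of 0.0101 to 0.322 (95%). It passed in 5 of 8 repeats (edgeR adjusted p = 0.0173). PPP1R3G and ZC3H11B reached the filter only through the controls, so their falls were in part selected.

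Among the rises past the threshold were an antisense RNA with few counts in the controls and several protein genes. DLGAP1-AS2 (NR_119377.1, chr18:3603737-3610089), an antisense long noncoding RNA, had 2, 6 and 8 counts in the controls and 64 in TMZ600. The log2 fold change was 3.35 (SE 0.55, edgeR adjusted p = 0.000189). It was tested only because of its counts in TMZ600, since its controls averaged 5.33, so its rise was in part selected. A fit without a filter gave a log2 fold change of 3.32, but DLGAP1-AS2 was still picked for the size of its rise. LURAP1L (NM_203403.2, chr9:12775020-12823060), a little-studied protein gene, rose from 68, 59 and 55 counts to 187 (log2 fold change 1.42, SE 0.28, edgeR adjusted p = 0.0015) and narrowly missed the threshold without control 3 (adjusted p = 0.055). KHDC4 (NM_014949.4, chr1:155913045-155934413), a KH-domain protein that takes part in splicing, had 349, 245 and 276 counts in the controls and 816 in TMZ600. The log2 fold change of KHDC4 was 1.29 (SE 0.15, edgeR adjusted p = 5.45e-06), the lowest p of all rises. KHDC4 was not in the list of genes for splicing and mRNA processing. TBC1D16 (XM_017024187.1), a GTPase-activating protein for Rab proteins, rose from 214, 170 and 195 counts to 470 (log2 fold change 1.08, SE 0.16, edgeR adjusted p = 5.24e-05), and its exons overlap AC100791.3 on the other strand. The groups lay apart for all 4 of these.

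Further rises lay in genes of varied roles. CCDC179, a coiled-coil gene, went from 73, 95 and 65 counts to 255 (log2 fold change 1.50, edgeR adjusted p = 0.000328). CPSF4L, named for its likeness to a cleavage and polyadenylation factor, went from 55, 29 and 41 to 134 (log2 fold change 1.49, edgeR adjusted p = 0.00616), and its exons overlap C17orf80 on the other strand. It was the 1 of 5 tested genes for splicing and mRNA processing that passed, against 9.37% over all 630, and it did not pass without control 3 (adjusted p = 0.155). TMEM33, a membrane protein of the endoplasmic reticulum, went from 94, 86 and 112 counts to 192 (log2 fold change 0.78, edgeR adjusted p = 0.0473), and EBLN1, a gene derived from a bornavirus nucleoprotein, from 252, 179 and 178 to 364 (log2 fold change 0.64, edgeR adjusted p = 0.0308). TMEM33 passed in 4 of 10 repeats.

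**Figure D2:**
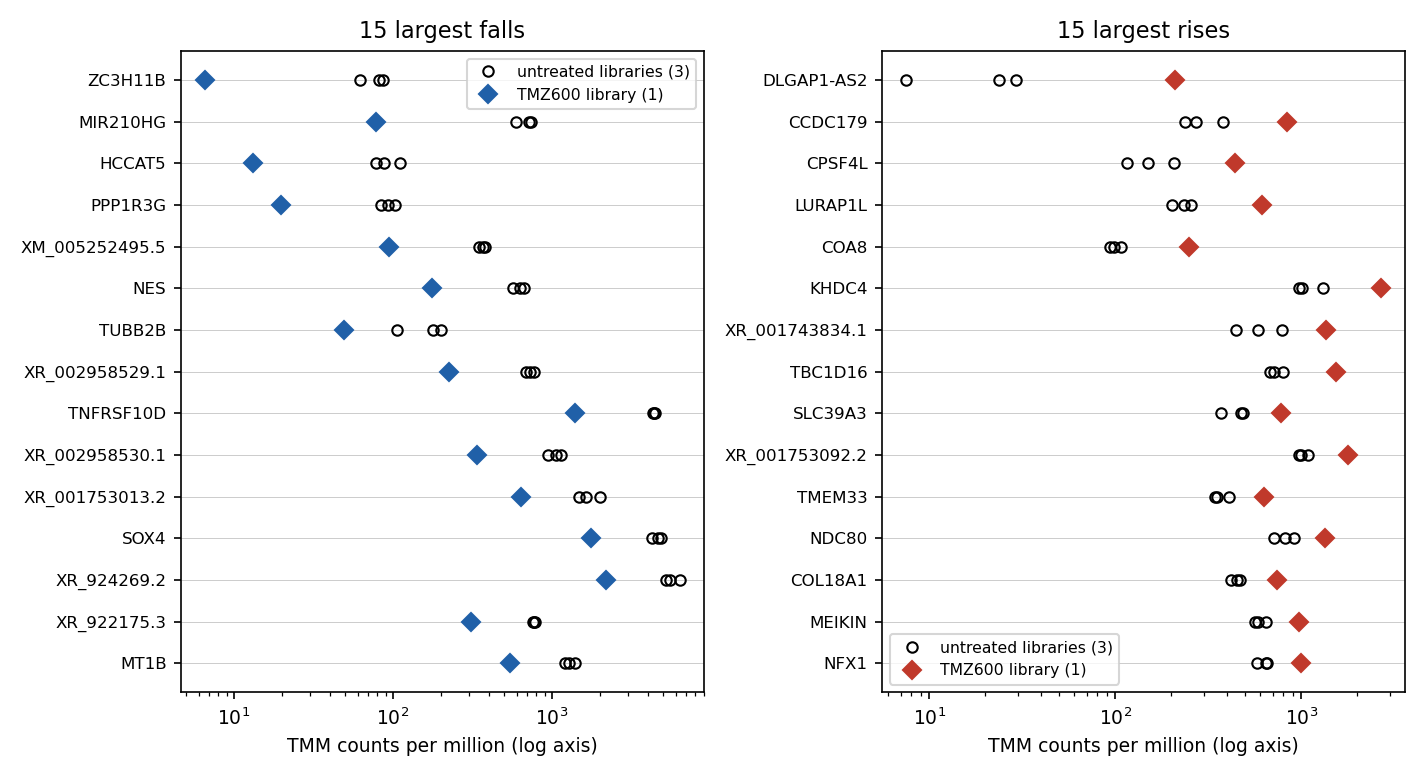
The x axis gives TMM-scaled CPM (log axis) for the 15 largest falls (left) and the 15 largest rises (right) among transcripts past the threshold. Open circles are the 3 untreated libraries and diamonds the TMZ600 library, which stands outside the circles in every line, as the choice of these transcripts required. Lines with RefSeq identifiers are transcripts without a symbol.

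Noncoding RNAs without a known function made up much of the rest. LOC101927269 fell from 238, 299 and 295 counts to 146 (log2 fold change -1.13, edgeR adjusted p = 0.000359), and LOC105370664 from 118, 130 and 121 to 64 (log2 fold change -1.15, edgeR adjusted p = 0.0143). HCCAT5, first described in liver cancer, fell from 21, 28 and 24 counts to 4 (log2 fold change -2.77, SE 0.73, edgeR adjusted p = 0.0167), passed in 4 of 8 repeats and overlaps ZFHX3 on the other strand. HCCAT5 reached the filter only through the controls, so its fall was in part selected. LOC107985563 rose from 245, 297 and 324 counts to 480, and LOC105372858 from 192, 200 and 239 to 351 (edgeR adjusted p = 0.0422 and 0.0448). Antisense RNAs need the strand of the reads, and the setting used for it in the counting is not given in the sources used here. SREBF2-AS1 fell from 203, 210 and 267 counts to 140 (log2 fold change -0.89, edgeR adjusted p = 0.00616) and PYCARD-AS1 rose from 1226, 928 and 1057 to 1635 (log2 fold change 0.41, edgeR adjusted p = 0.0473), the latter in 3 of 10 repeats with other settings. Both overlap exons of their partner genes, so that reads from partner and antisense RNA may not be told apart. The list of long noncoding and antisense RNAs had 2 rises and 1 fall in 54 tested members, against 4.13 and 5.24% over all 630, and its median was -0.05. Of the transcripts without a symbol, XR_924269.2 was the most abundant that fell, from 1714, 1386 and 1429 counts to 669 (log2 fold change -1.38, SE 0.14, edgeR adjusted p = 6.47e-07). The 8 falls in this class lay between -1.94 and -0.54 on the log2 scale and the 4 rises between 0.53 and 1.17. Over the whole comparison, exons of 164 tested transcripts overlap a gene on the other strand, and 5 of these rose and 5 fell, against 4.13 and 5.24% over all 630. On the same strand, SVOP, SHB, MEIKIN and SLC39A3 overlap further annotated genes.

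RNA of the mitochondrial genome took up more of the TMZ600 library. Its share of all counts was 48.6, 48.4 and 49.1% in the controls and 51.7% in TMZ600, against a control mean of 48.7 ± 0.340% (SD, n = 3). The difference of 2.92 percentage points gave an exact permutation p of 0.25 (two-sided), the smallest that 1 library against 3 allows. Of the 13 protein genes of this genome 1 rose, COX1, where 4.13% rose over all 630. COX1 (YP_003024028.1, positions 5904 to 7445 of the mitochondrial genome), the catalytic subunit of cytochrome c oxidase, had 3169, 3361 and 4124 counts in the controls and 5943 in TMZ600 (log2 fold change 0.54, SE 0.12, edgeR adjusted p = 0.00438). The other oxidase subunits, COX2 and COX3, had log2 fold changes of 0.12 and -0.08 (edgeR adjusted p = 0.574 and 0.734). Of the complex I subunits, ND4L went from 3792, 4687 and 5043 counts to 6759 and ND1 from 3067, 3542 and 4333 to 5316, above every control, and neither passed (log2 fold change 0.38 and 0.34, edgeR adjusted p = 0.0695 and 0.14). With all 9 libraries in the fit both passed (adjusted p = 0.014 and 0.0477), and ND4L also passed with DESeq2's size factors (0.0233) and limma-voom (0.0338). ND6, the only one of the 13 encoded on the light strand, had 62, 51 and 60 counts against 101 (log2 fold change 0.61, SE 0.32, edgeR adjusted p = 0.289). ND3 was the lowest, at -0.20 (edgeR adjusted p = 0.308). Over the 13 genes 9 lay above and 2 below all controls, against 33.0 and 31.0% of all 630, and the median log2 fold change was 0.13. Some of these genes overlap, as ATP8 with ATP6 and ND4L with ND4, and how reads in the overlap were counted was not tested.

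**Figure D3:**
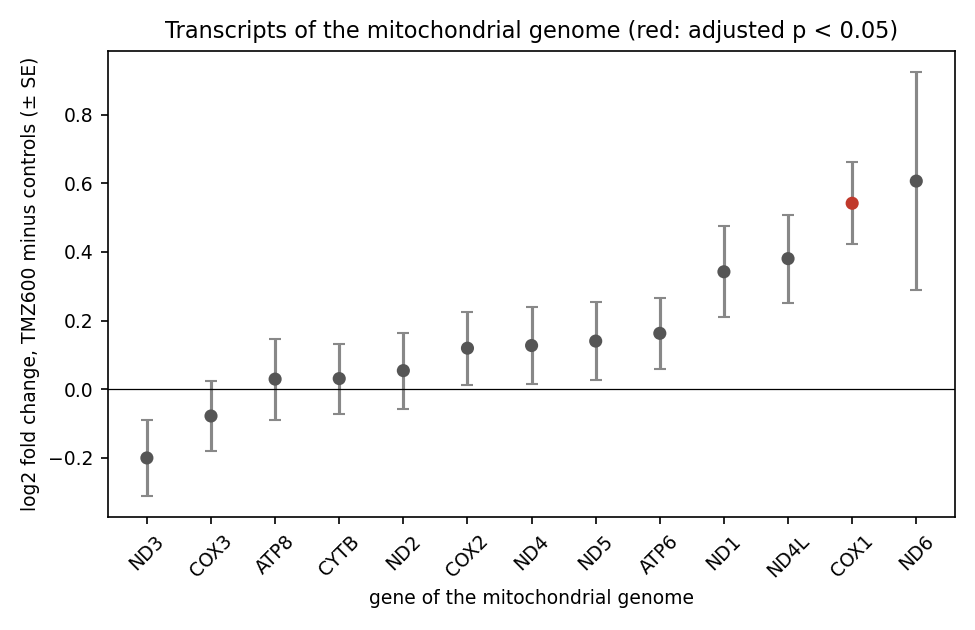
Log2 fold change of TMZ600 against the 3 controls (y axis) for the 13 protein genes of the mitochondrial genome (x axis, sorted by value). Bars are ± the approximate SE derived from the F value of the edgeR test. Values run from -0.20 for ND3 to 0.61 for ND6, and COX1 (red, 0.54) was the gene past the threshold.

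Of 9 tested nuclear genes for mitochondrial proteins, 1 rose, against 4.13% over all 630, and their median was -0.09. NDUFS6 (NM_004553.5, chr5:1801407-1816048), a complex I subunit encoded in the nucleus, had 699, 615 and 670 counts in the controls and 1065 in TMZ600 (log2 fold change 0.49, SE 0.12, edgeR adjusted p = 0.0135), and passed in 7 of 10 repeats but not without control 3 (adjusted p = 0.116). COA8, an assembly factor of cytochrome c oxidase that the list did not hold, rose from 25, 27 and 27 counts to 76 (log2 fold change 1.32, SE 0.35, edgeR adjusted p = 0.0179) and passed in 5 of 8 repeats. The treated library lay above all controls for both.

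The ribosomal proteins RPLP2, RPL37 and RPS6 lay below all controls, with a median log2 fold change of -0.19, where 31.0% of all 630 lay below them, and 0 of the 3 passed. The lists of zinc finger genes (11 tested), histones (4), translation factors (4), chromatin regulators (2), RNA polymerase subunits (1), the pentose phosphate pathway (1) and cholesterol and fatty acid synthesis (1) also had 0 members past the threshold. The zinc finger list did not hold NFX1 and ZC3H11B, which passed. With 9.37% called over all 630, counts of 0 in lists this short are no result about them. The unfolded protein response, drug transporters and the proteasome had 0 tested members, so their response to TMZ could not be measured here.

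Of the 41 named transcripts that passed, 18 also passed in every alternative fit that gave them an adjusted p, 13 lower and 5 higher. With a symbol these were TNFRSF10D, MIR210HG, SOX4, NES, MT1B, TCF7L1 and IFITM1 among the falls and DLGAP1-AS2, KHDC4, TBC1D16 and COX1 among the rises. DLGAP1-AS2 reached the filter only through its TMZ600 counts, so its rise was in part selected. Calls outside the named set, such as CFAP45 and RRAGA, were followed only through the fits that left out a control. Without control 3, 14 of the 19 named rises and 9 of the 22 named falls no longer passed.

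The levels of these transcripts in the other treated libraries are given for comparison on a common TMM scale over all 9 libraries. All treatments were set against the same 3 controls, so their fold changes are not independent, and doses differ, so no test between treatments was made. TNFRSF10D had 3799 to 3997 CPM in the controls, 1245 CPM in TMZ600, 1852 in EA30 and 1448 in EA45, and between 695 and 1177 CPM in the 3 mixtures. TBC1D16 had 603 to 726 CPM in the controls, 1364 in TMZ600, 818 in EA30 and 714 in EA45, and between 1420 and 1905 CPM in the mixtures. TCF7L1 had 9559 to 9953 CPM in the controls, 5551 in TMZ600, 8990 in EA30, 7819 in EA45, 4675 in the mixture of EA 35 µM with TMZ 320 µM, 8786 in EA 20 µM with TMZ 380 µM and 3648 in EA 20 µM with TMZ 580 µM. Within the mixtures the TCF7L1 level differed between libraries by more than the controls did.

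Some other members had levels on opposite sides of the controls in TMZ600 and in EA alone, chosen here after their values were seen. RRAGA had 4469 to 5352 CPM in the controls, 2552 in TMZ600, 7565 in EA30 and 8540 in EA45. NDC80 had 635 to 828 CPM in the controls, 1190 in TMZ600, 293 in EA30 and 90.5 in EA45. SRCIN1 had 1321 to 1853 CPM in the controls, 2131 in TMZ600, 757 in EA30 and 334 in EA45. C3 had 1569 to 2160 CPM in the controls, 1231 in TMZ600, 2469 in EA30 and 3060 in EA45. The difference between the drugs was not tested for these genes.

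**Figure D4:**
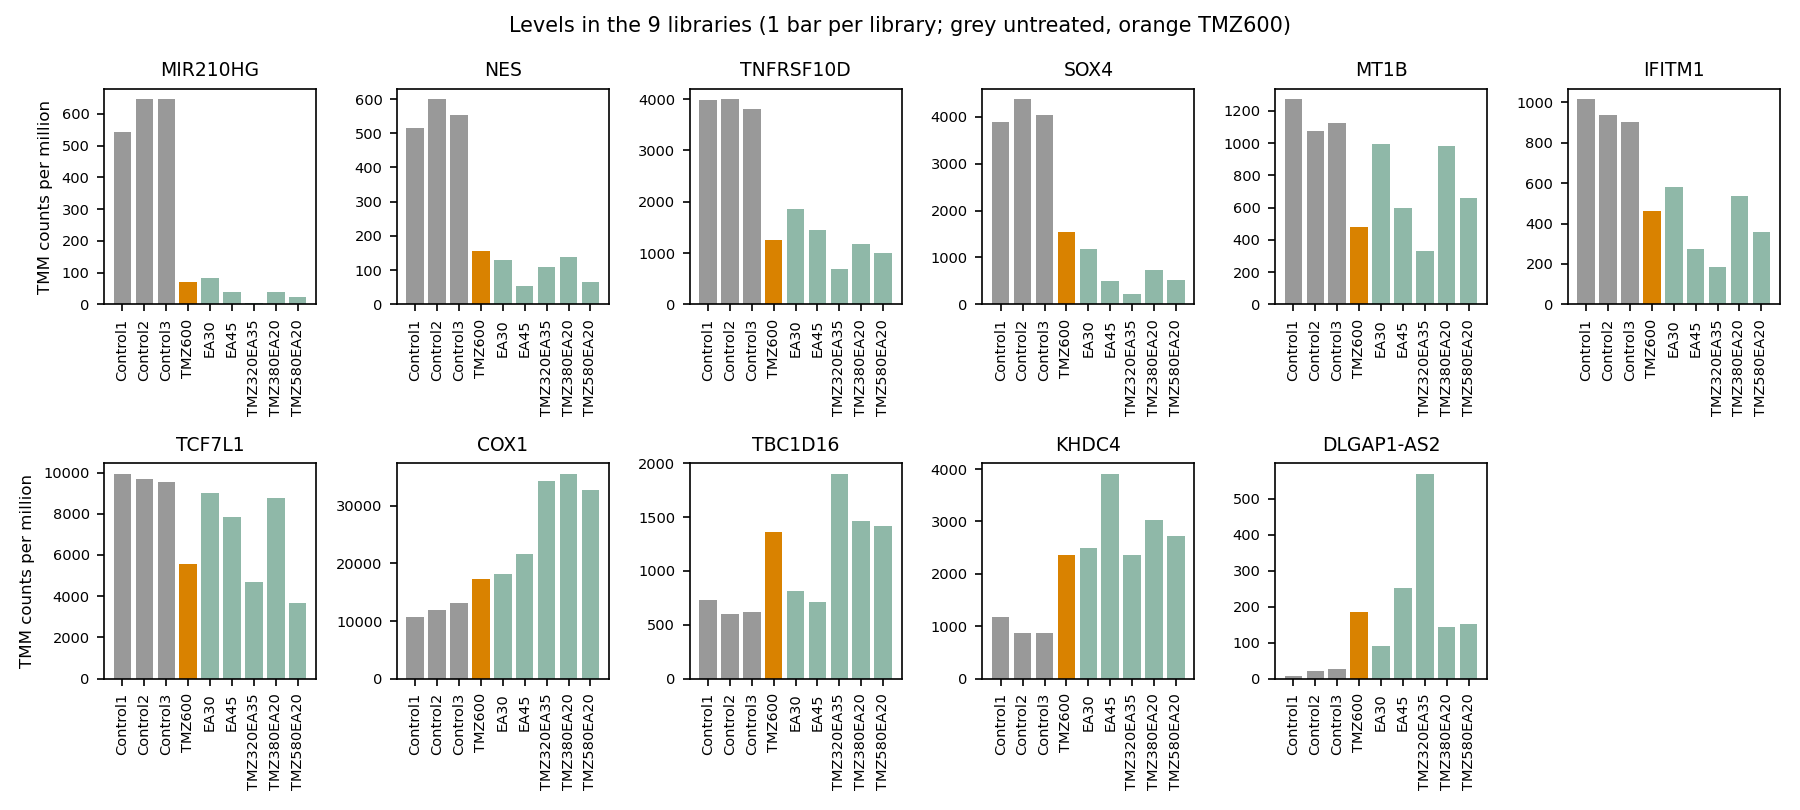
Levels in TMM-scaled CPM over the 9 libraries (y axis, linear, from 0). Shown are the 11 named transcripts with a symbol that passed in every alternative fit that gave them an adjusted p. Calls outside the named set were not followed through all fits, and DLGAP1-AS2 reached the filter only through TMZ600. Each bar is 1 library, grey for the 3 untreated, orange for TMZ600 and green for the 5 treatments with EA. TMZ600 lies outside the range of the grey bars in each panel, as the choice of transcripts required.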

How the data were processed

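RNA of U-87 cells was sequenced from 3′ end libraries (QuantSeq). The deposited table gives counts for each RefSeq transcript, made by the authors and left unnormalized as whole numbers. The submitters' processing notes name HISAT2, HTSeq and build hg38, and their versions and settings are not given in the sources used here. Groups came from the sample labels. Symbols came from RefSeq GRCh38.p14, by accession and version for 373 tested transcripts and by accession alone for 153, and from GENCODE for 2, while 102 had none. Overlaps of exons were read from GENCODE.

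Differences were tested with edgeR 4.0.16 in R 4.3.3 (TMM, quasi-likelihood F-test) on 1 TMZ600 library and 3 controls, for transcripts averaging 10 counts or more, with Benjamini-Hochberg adjustment over all 630 and a threshold of 0.05. Only the controls gave a spread (2 residual degrees of freedom), to which sharing over transcripts added 18.4, and the biological coefficient of variation was 0.172. Control pairs differed by chi-square values per degree of freedom of 3.57 to 5.82, more than counting noise. Limits and intervals cover counting error only. Alternatives were DESeq2 1.42.0, limma-voom (limma 3.58.1), other filters and scalings, all 9 libraries in the fit, and leaving out each control. The members and gene lists were chosen with earlier results of these data known. Named genes were the 15 largest rises and 15 largest falls past the threshold and outside the range of the controls, the mitochondrial genes, members of lists past the threshold, tested members of 6 lists (repair of DNA, p53 targets, cell cycle, apoptosis, Wnt, tubulins) and MGMT. Other genes in the text passed the threshold or lie in a list and were named after their values were seen. Promoter windows came from RefSeq, for 367 of the tested genes. Python 3.11.15, pandas 2.3.3 and matplotlib 3.10.9 were used for the rest. Lists were described by counts and medians, with no test of a list.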

Additional observations from a re-analysis of the deposited data

How the results depend on the processing

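The number of transcripts past the threshold was 59 (26 higher, 33 lower). With the Wald test of DESeq2 it was 36 (11 higher), which gave no adjusted p for 379 of 630 transcripts. When a change of at least 1 on the log2 scale was also required it was 30 (8 higher), and without a filter on low counts, over 4387 transcripts, the number higher was 14. Leaving out 1 control gave 20 to 41 transcripts, 5 to 15 higher and 15 to 26 lower. The lowest values came without control 3 (20, 5 and 15), and without control 1 there were 38 (14 higher) and without control 2 there were 41 (15 higher). All 20 transcripts called without control 3 were among the 59. DESeq2's size factors, limma-voom, all 9 libraries in the fit, a mean of at least 50 counts and leaving out the mitochondrial genome gave 55 to 67. Leaving out the mitochondrial genome gave 23 higher and 39 lower. The excess of mitochondrial counts stayed between 2.78 and 3.11 percentage points. Transcripts outside the range of the controls numbered 395 to 413 under other scalings and 462 to 495 without a control. Log2 fold changes near 0 changed sign for CYTB (-0.0012) and ATP8 (-0.0033) without the filter. Leaving out 1 control gave -0.015 to 0.089 for ND2, -0.065 to 0.080 for ATP8, -0.69 to 0.33 for RIPK1 and -0.11 to 0.20 for TUBA4B, the values of ATP8, RIPK1 and TUBA4B having the other sign without control 3 and that of ND2 without control 1. None of the 5 genes passed the threshold in these fits. The causes were not tested. ND4L and ND1, which did not pass, did so with all 9 libraries. Limits are the depth, with most genes at 0, and the single treated library, whose spread was not measured. No paired analysis was possible because the treated condition has 1 library and the numbers of the controls are shared with no other group.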
